A study of Mus musculus with 3 samples.

Results

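The 10 genes described here encode the AP-1 transcription factors and other early response regulators Fos, Fosb, Fosl1, Fosl2, Jun, Junb, Jund, Atf3, Egr1 and Nr4a1, and accessible chromatin was read at each of them in mouse hepatocytes. They were chosen by name, out of 21631 protein-coding genes of chromosomes 1 to 19 and X, and each was taken with its RefSeq gene body and 50 kb on either side. These windows held 165, 188 and 159 called peaks in replicates 1, 2 and 3, out of 108997, 119230 and 110455 peaks in the whole lists. The series asks how forced Sox4 alters the open chromatin of adult hepatocytes. The 3 libraries used are ATAC-seq libraries, in which Tn5 transposase cuts accessible DNA, and all carry the label EV. The labels give wild-type mice and the control virus AAV8-TBG-Cre, in which the hepatocyte-active TBG promoter drives Cre recombinase, injected behind the eye. Hepatocytes were harvested on day 4, freed by liberase digestion, enriched on Percoll and sorted before nuclei were taken. The Sox4 libraries were not analysed here, so no treatments are compared. Which marker the sort used is not given in the labels. No undigested liver or uninjected animal is among the libraries used, so effects of virus, digestion and sorting on these genes cannot be told apart from their state in the animal. The labels do not say whether the libraries came from separate animals or state the animals' age, so part of their spread may be technical.

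AP-1 is a dimer of basic leucine zipper proteins, in which a Jun protein pairs with a Fos protein, another Jun protein or a relative such as Atf3. Several of its genes are switched on within minutes by growth factors, cytokines and stress. This runs through kinases that act on factors already bound at their promoters, such as serum response factor and CREB. In liver several of these genes are known for their rapid induction after partial hepatectomy and during the isolation of hepatocytes.

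Depth was 96066404, 116147036 and 117450440 tags, and all levels below are the authors' summit pileup per 1000000 tags of the library. The library labelled EV replicate 2 stood apart, and its signal over Sox4 goes against its label. Its highest peak over the Sox4 gene body reached 21.9 pileup per 1000000 tags, against 1.33 and 1.14 in replicates 1 and 3. Hepatocyte marker genes had a start-site peak in all 3 libraries at 7 of 7, with a summed level of 44.25 in the library labelled EV replicate 2 and 49.96 and 51.09 in the others. The numbers were 0 of 6 for macrophage, 1 of 5 for endothelial, 2 of 5 for cholangiocyte and 2 of 5 for stellate cell markers, with summed levels of at most 0.258, 0.973, 8.06 and 5.25, each highest in the library labelled EV replicate 2. Adgre1, Clec4f, Cd5l, C1qb, Ptprc, Cdh5, Pecam1, Stab2, Lyve1, Krt19, Cftr, Dcn, Col3a1 and Pdgfrb had no such peak in any library. Those with one in all 3 were Sox9 (3.55, 4.74 and 3.23 in replicates 1, 2 and 3), Col1a1 (3.24, 3.16 and 3.02), Epcam (1.99, 3.02 and 1.55), Lrat and Kdr. C1qa and Krt7 had one in the library labelled EV replicate 2 alone, of 0.258 and 0.301. The label of that library may be wrong, which was not tested, so a mean ± SD over 3 libraries may mix treatments. In each set of 3 library values below, the value of replicate 2 is that of this library, and those of replicates 1 and 3 stand without it.

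Promoter sequences from RefSeq on build GRCm38.p6 (the coordinates of mm10) were matched for 8 of the 10 genes. The 250 bases before the annotated start are shown for 5 of them. Fos, Atf3 and Nr4a1 carry the core of the cAMP response element, TGACG, which CREB and ATF proteins recognise, and Jun carries a site of the form TGANNTCA. Jund is shown because its annotated promoter held no peak. Capitals mark TGACG on either strand in Fos, Atf3 and Nr4a1, and TGANNTCA in Jun and Jund. The intervals are chr12:85473640-85473889 on the plus strand for Fos, chr1:191183334-191183583 on the minus strand for Atf3, chr15:101266596-101266845 on the plus strand for Nr4a1, chr4:95052223-95052472 on the minus strand for Jun and chr8:70697489-70697738 on the plus strand for Jund. Each runs 5′ to 3′ towards the start.
Fos: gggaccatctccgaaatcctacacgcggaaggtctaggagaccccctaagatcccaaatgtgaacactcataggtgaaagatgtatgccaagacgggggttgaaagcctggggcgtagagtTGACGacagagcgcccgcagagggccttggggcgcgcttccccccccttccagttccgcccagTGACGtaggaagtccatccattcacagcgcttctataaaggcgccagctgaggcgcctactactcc
Atf3: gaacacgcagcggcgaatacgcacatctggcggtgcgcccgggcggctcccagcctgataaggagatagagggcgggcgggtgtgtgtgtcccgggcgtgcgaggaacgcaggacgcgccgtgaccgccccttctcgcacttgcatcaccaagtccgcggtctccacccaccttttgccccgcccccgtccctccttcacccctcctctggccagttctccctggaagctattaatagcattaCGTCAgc
Nr4a1: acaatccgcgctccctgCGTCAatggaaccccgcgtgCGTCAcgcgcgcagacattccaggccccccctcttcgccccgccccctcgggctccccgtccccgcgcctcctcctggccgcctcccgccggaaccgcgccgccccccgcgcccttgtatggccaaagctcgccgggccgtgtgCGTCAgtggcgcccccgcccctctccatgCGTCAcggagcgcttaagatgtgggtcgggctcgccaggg
Jun: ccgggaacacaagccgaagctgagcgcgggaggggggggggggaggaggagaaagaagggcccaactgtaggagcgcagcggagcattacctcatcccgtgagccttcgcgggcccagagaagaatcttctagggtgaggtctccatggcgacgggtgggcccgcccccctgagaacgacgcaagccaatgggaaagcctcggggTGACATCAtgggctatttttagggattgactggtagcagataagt
Jund: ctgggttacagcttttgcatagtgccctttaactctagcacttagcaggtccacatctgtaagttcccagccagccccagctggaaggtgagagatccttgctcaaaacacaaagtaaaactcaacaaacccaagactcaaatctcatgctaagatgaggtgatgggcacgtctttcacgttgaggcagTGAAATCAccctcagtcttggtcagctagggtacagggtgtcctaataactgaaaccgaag

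TGACG lay in 5 of the 8 promoters with a sequence, those of Fos, Fosb, Junb, Atf3 and Nr4a1, against 20.5% of 17274 promoters of the same length, counting both strands. Nr4a1 held 4 copies, at −233, −213, −69 and −40 by the first base of each, with −1 the base before the start, and Fos held 2, at −129 and −66. The copy in Atf3 lay at −7, and TGANNTCA at −45 in Jun and −61 in Jund. The EGR site GCGGGGGCG lay in Fosb, Fosl2 and Nr4a1, against 3.42% of all promoters. In Nr4a1 and Fosb it overlaps a GC box, GGGCGG, which lay in 6 of 8 members against 43.2%, and in Fosl2 likewise. TATAAA was found in Fos, against 12.5%, and CCAAT in Jun and Junb, against 36.7%. The AP-1 site TGANTCA (6.27% of all promoters), the full element TGACGTCA (2.03%), the CArG box bound by serum response factor (1.41%) and GCGTGGGCG (0.729%) matched none of the 8 in these windows. TGANNTCA, added after the promoters had been scanned, lay in Jun and Jund, against 10.9% of all. The member promoters had a median GC content of 64.8% and 19.5 CpG pairs, against 55.6% and 10 over all promoters. Jund differed from the other 7, with a GC content of 47.6% and 3 CpG pairs.

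All 10 genes had a peak at or near the start in every library. A start-site peak was one within 1000 bp of the annotated start. For Fosl1 and Egr1, where no start site was used, it was one within 1000 bp of either gene end. Counted so, 10 of 10 members had a start-site peak in all 3 libraries, against 64.2% of all protein-coding genes. For genes with an annotated start it was 8 of 8 against 63.9%, and with either gene end for every gene it was 10 of 10 against 64.4%. The peak covered the start site itself in all 3 libraries in Fos, Fosb, Jun, Junb, Atf3 and Nr4a1. In Fosl2 the tallest start-site peak of replicate 3 ended before the 250 promoter bases. In that library 73.6% of them lay under another peak, not the one whose level is given here.

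Jund was the exception at its annotated start. It is known for steady rather than induced expression, and a link between that and its peaks was not tested. Its nearest peaks began inside the gene, at 70698389, 70698354 and 70698361 in replicates 1, 2 and 3, and their summits lay 1095, 1118 and 1105 bp after the annotated start at 70697739. None of its 250 promoter bases shown above lay under a peak in any library. With a window of 500 bp Jund had no start-site peak, and the count was 9 of 10.

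**Figure D1:**
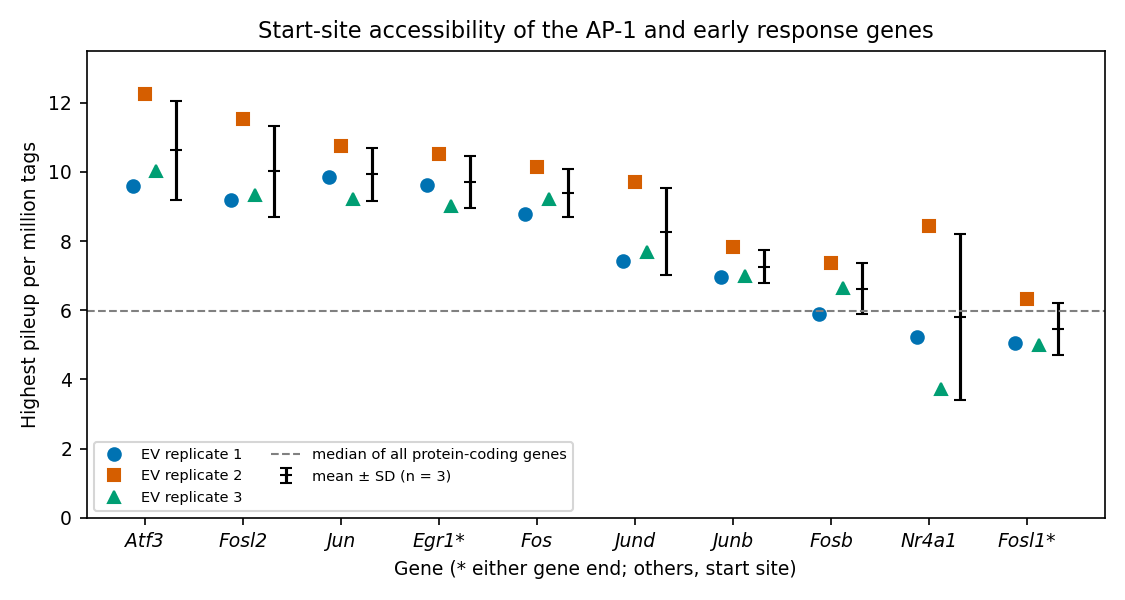
Highest pileup per 1000000 tags (y axis) of the start-site peak of each gene (x axis), with 1 symbol per EV replicate and the mean ± SD of the 3 beside them. For Fosl1 and Egr1 the value is that of the taller gene end in each library. The dashed line is the median of all protein-coding genes open in all 3 libraries, 5.98, and the library labelled EV replicate 2 gave the highest value at each of the 10 genes.

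The plot of start-site levels shows a spread from 10.6 at Atf3 to 5.46 at Fosl1. The Fosl1 value is that of its upper end, which also lies at the end of Ccdc85b, and its lower end had a mean of 1.83. The members' median was 8.80 ± 0.991 pileup per 1000000 tags, against 5.98 ± 0.224 over all protein-coding genes with a start-site peak in all 3 libraries (SD of the library medians, n = 3). In replicates 1 and 3 alone the members' medians were 8.10 and 8.35, against 5.85 and 5.86 over all genes. Ranked within each library among genes with a start-site peak, the members had median percentiles of 81.4, 93.2 and 83.1 in replicates 1, 2 and 3 (85.9 ± 6.38, SD, n = 3). Without the library labelled EV replicate 2 the mean of the other 2 was 82.2. The order by mean was Atf3, Fosl2, Jun, Egr1, Fos, Jund, Junb, Fosb, Nr4a1 and Fosl1. The ranges of each gene and the next overlapped, so no neighbours were separated by the spread between libraries. For Egr1 the value came from the upper gene end in replicate 1 and from the lower end in replicates 2 and 3. The 3 genes with the nearest values over the 3 libraries to the members' medians were Gstm1, Kctd6 and Cfap410, at Euclidean distances of 0.014, 0.030 and 0.038 on the log2 scale.

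Among the Fos genes, Fosl2 and Fos were tall and Fosb and Fosl1 lower. Fosl2 encodes Fra-2, a Fos protein that lacks the activation domain of Fos. Its start-site level was 9.18, 11.5 and 9.32 in replicates 1, 2 and 3 (10.0 ± 1.32, SD, n = 3). Fos (chromosome 12, 85473890 to 85477274) had 8.80, 10.2 and 9.20 pileup per 1000000 tags (9.38 ± 0.695), with its summits at −9, −25 and −8 bp from the start. Fosb (chromosome 7, 19302696 to 19310118), the close relative of Fos, had 5.88, 7.35 and 6.65 (6.63 ± 0.736), with summits at −317, −315 and −309 bp from the start. Fosl1 (chromosome 19, 5447698 to 5455938) encodes Fra-1, and its ends differed. At its upper end a region from 5456711 to 5458097, which also lies at the end of Ccdc85b, reached 5.06, 6.31 and 5.01. At its lower end a region from 5447343 to 5448960 reached 1.84, 2.08 and 1.58. The ranges of these 2 ends did not overlap, and the lower end stood below the start-site level of every other member in each library.

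Peaks covered most of the bodies of the Jun genes, and in Jun and Junb the start site too. Jun (chromosome 4, 95049036 to 95052222), a partner of Fos that hepatocytes need for normal regeneration in mice, had a start-site level of 9.84, 10.7 and 9.22 in replicates 1, 2 and 3 (9.93 ± 0.767, SD, n = 3). Its summits lay 27, 1 and 8 bp after the start. Jund (chromosome 8, 70697739 to 70700616) had 7.41, 9.71 and 7.70 at the region inside the gene (8.27 ± 1.25). Junb (chromosome 8, 84976909 to 84978748), which can restrain the activity of Jun, had 6.97, 7.82 and 6.999 (7.26 ± 0.480). The region beyond the 3′ end of Junb, from 84975303 to 84976854, which also lies at an end of Prdx2, reached 7.66, 9.54 and 8.11. An end of the annotated gene Junos lies beside the start of Jun, and an end of Iqcn beside the Jund region, so these peaks cannot be assigned to 1 gene.

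**Figure D2:**
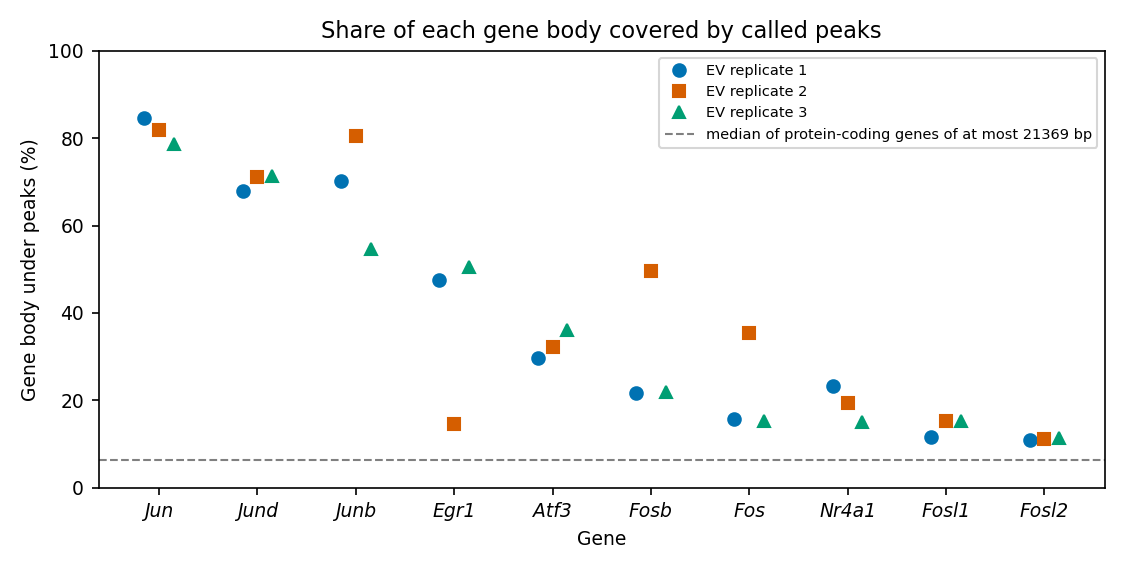
Share of each gene body under called peaks, in percent (y axis), for each gene (x axis), with 1 symbol per EV replicate. The dashed line is the median of 12050 protein-coding genes no longer than Fosl2, 6.27%, and Jun, Jund and Junb lie between 54.6% and 84.7%.

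The share of the gene body under peaks was 84.7%, 81.9% and 78.7% in Jun, 67.9%, 71.2% and 71.4% in Jund, and 70.1%, 80.6% and 54.6% in Junb, in replicates 1, 2 and 3. The members' median was 31.9%, against 6.27% over the 12050 protein-coding genes of at most 21369 bp, the length of the longest member, Fosl2. A peak of given width takes up a larger share of a short gene, and these 3 are the shortest members, at 3187, 2878 and 1840 bp. Fos is of like length, 3385 bp, and had 15.8%, 35.4% and 15.4%. Egr1 had 47.5% and 50.4% in replicates 1 and 3 and 14.6% in the library labelled EV replicate 2. The plot of covered shares shows the library labelled EV replicate 2 apart from the other libraries at Fos, Fosb and Egr1. At Junb replicates 1 and 3 were also apart, at 70.1% and 54.6%.

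Atf3, Egr1 and Nr4a1 belong to other families. Atf3 (chromosome 1, 191170296 to 191183333), a stress-induced leucine zipper factor that often represses, had the highest start-site mean of the members, with 9.58, 12.3 and 10.04 in replicates 1, 2 and 3 (10.6 ± 1.43, SD, n = 3). A region of 4225 bp across its 3′ end, from 191167186 to 191171410, reached 6.85, 10.4 and 7.12. Egr1 (chromosome 18, 34861207 to 34864956) encodes a zinc finger factor. It had tall regions at both ends, with 8.27, 10.5 and 9.01 at the lower end and 9.61, 9.69 and 8.98 at the upper end. Nr4a1 (chromosome 15, 101253902 to 101274795) encodes the orphan nuclear receptor Nur77, which promotes gluconeogenesis in mouse liver. Its level at the annotated start, 101266846, was 5.24, 8.42 and 3.74 (5.80 ± 2.39), the widest spread of the 10. This is the only start used, and the gene body begins before it. Over that lower end of the body a region from 101253710 to 101254788 reached 4.13, 5.84 and 4.79. In replicate 3 it was taller than the peak at the annotated start.

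Pileup and fold enrichment ranked most of these genes very differently. MACS fold divides the pileup by a background level, here the genome average or the level within 10000 bp, whichever is greater. Each gene was given its highest fold among its start-site peaks. This was not the peak with the highest pileup in Egr1 in replicate 1, Junb in replicate 3 and Fosl1 in replicates 1 and 3, where the tallest peaks had folds of 2.72, 2.45, 8.22 and 8.45. By this fold the members' median percentile among start-site peaks was 10.5, 5.88 and 10.7 in replicates 1, 2 and 3 (9.03 ± 2.73), against 85.9 ± 6.38 by pileup (SD, n = 3). The median fold was 4.62 ± 0.491 for the members and 11.03 ± 0.305 for all start-site peaks. Jun had folds of 2.99, 2.87 and 2.54, and Egr1 had 2.74, 3.32 and 2.62. Junb had 2.74, 2.61 and 2.63, at percentiles of 1.92, 1.28 and 1.91. Nr4a1 had 8.61, 7.31 and 11.1, and its library with the lowest pileup had the highest fold. All 10 genes had a lower mean percentile by fold than by pileup. The local level enters the fold as its denominator, so a higher local level gives a lower fold at the same pileup. The part of the local level in the low folds of these genes was not tested.

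**Figure D3:**
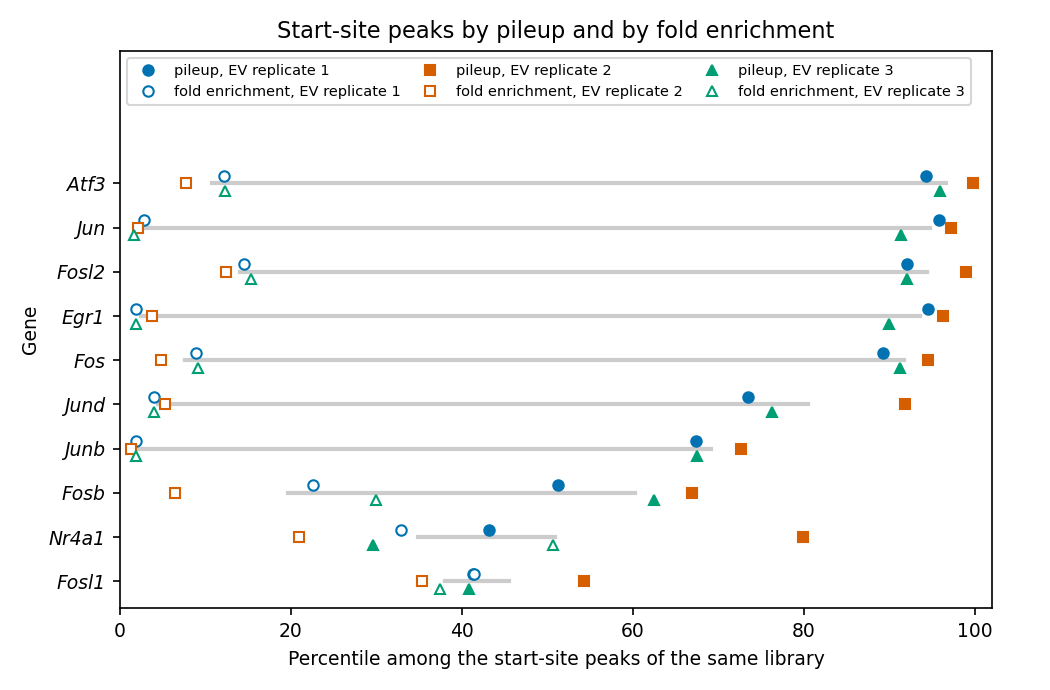
Percentile (x axis), within each library, of the highest pileup (filled symbols) and the highest fold enrichment (open symbols) at the start of each gene (y axis), for the 3 libraries labelled EV. The 2 can come from different peaks of a gene. Grey bars join the means, and for Jun they run from 2.18 by fold to 94.8 by pileup.

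Around the genes, the windows held 196 merged regions, of which 137 (69.9%) had a peak in all 3 libraries, against 61.5% of 139455 regions genome-wide. Of the 137 regions, 33 lay at the member's own gene, 47 at an end of another annotated gene, and 57 away from gene ends and outside the member's own gene. With regions inside the members' own bodies, 65 lay away from gene ends. The median count in a window was 13 for the members and 8 over all protein-coding genes. Away from gene ends, own bodies included, the medians were 7 and 5, and 10 of 10 members had 1 or more such region, against 84.7% of all genes. Member windows held a median of 6.5 other annotated genes, against 5. Fosl2 and Nr4a1 had 10 regions away from gene ends, counting those inside their own bodies, and Fosl1 had 2 and Jun 3.

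**Figure D4:**
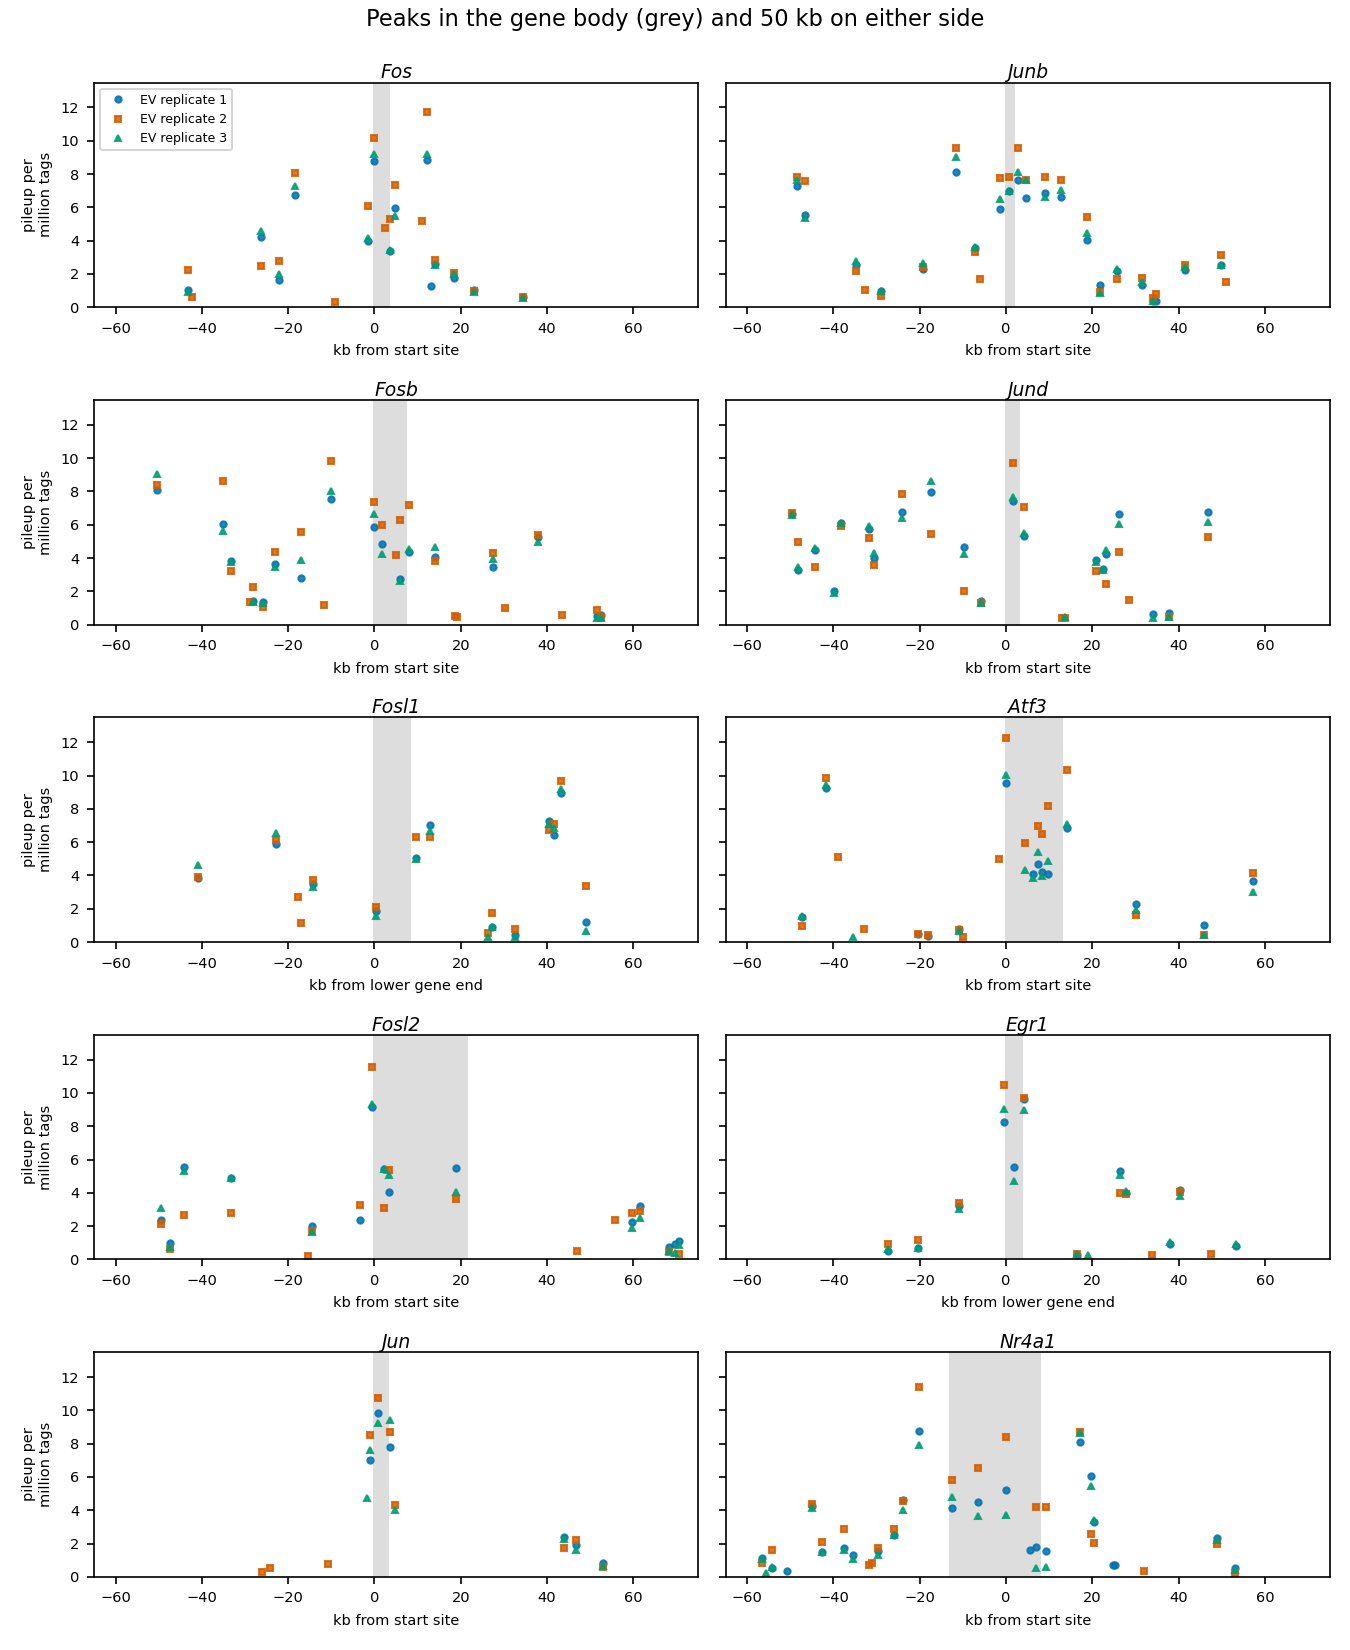
Pileup per 1000000 tags (y axis) of each region with a peak, by distance in kb of its centre from the start site, or from the lower gene end for Fosl1 and Egr1 (x axis, in the direction of transcription where the start is known), for the 3 EV replicates. Grey marks the gene body, and Jun stands nearly alone in its window while Junb and Jund lie among tall regions.

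At Fos the tallest region was not at the promoter but 12.2 kb after the start, between genes, from 85485621 to 85486511. It reached 8.85, 11.7 and 9.18 pileup per 1000000 tags in replicates 1, 2 and 3 (9.91 ± 1.57, SD, n = 3), against 8.80, 10.2 and 9.20 at the start site. The ranges overlap, so the spread between libraries does not separate them. This region stood at percentile 99.8 of all reproducible regions away from gene ends, by mean level. A further region at −18.4 kb from the start, inside the noncoding gene Gm38543, reached 6.72, 8.05 and 7.25. A region at −26.2 kb reached 4.24, 2.50 and 4.61, lowest in the library labelled EV replicate 2. One at −1.53 kb reached 3.98, 6.10 and 4.15, highest in it.

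Nr4a1 and Fosb also had tall intergenic regions. For Nr4a1 it lay at −20.2 kb from the annotated start, outside the gene body, from 101245964 to 101247361, with 8.79, 11.4 and 7.94 (9.38 ± 1.81, SD, n = 3). It was taller than the peak at the start in each library, though the ranges over the 3 libraries overlap. For Fosb it lay at −10.1 kb from the start, from 19319389 to 19320870, with 7.56, 9.84 and 8.003 (8.47 ± 1.21) and folds of 20.7, 18.6 and 22.04. It was taller than the start-site peak of Fosb in every library, and the ranges did not overlap. By mean level the Nr4a1 region stood at percentile 99.7 and the Fosb region at 99.3 of all reproducible regions away from gene ends.

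At the other genes the regions outside the member's own gene and away from gene ends were lower. Their tallest reached 7.11 ± 0.506 at Junb, inside Rnaseh2a, 6.06 ± 0.780 at Jund, inside Pde4c, 4.79 ± 0.712 at Egr1 and 4.18 ± 1.21 at Fosl2 (SD, n = 3). At Fosl1 it was 3.501 ± 0.216, at Jun 2.13 ± 0.370 and at Atf3 1.96 ± 0.319. Inside their own bodies Fosl2 and Atf3 had taller regions away from gene ends, of up to 4.84 ± 0.680 and 5.72 ± 2.15. The median of all reproducible regions away from gene ends was 1.45, and of the 57 outside the members' own genes 2.63. Several tall regions in these windows belong to ends of neighbours, such as Cfl1 near Fosl1 with 8.96, 9.70 and 9.22, Hook2 near Junb with 8.13, 9.55 and 9.02, and the pair Cd3eap and Ppp1r13l near Fosb with 8.08, 8.38 and 9.06. The window alone does not tie any region to a member.

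The library labelled EV replicate 2, whose Sox4 signal goes against its label, was higher than the others across most of these genes. At the start sites its level over the mean of replicates 1 and 3 was above 1 in 10 of 10 members, with a median of 1.21, against 68.7% and a median of 1.09 over all protein-coding genes open in all 3 libraries. Over the 33 reproducible regions at the members' own genes the ratio was above 1 in 31 (93.9%), with a median of 1.25. Of all reproducible regions at gene ends 56.9% were above 1, with a median of 1.04. Of all reproducible regions 41.4% were above 1, with a median of 0.921. The 33 regions lie at 10 genes, so they are not independent of each other. The 18 regions of the gene bodies and far ends had a median of 1.43, against 1.22 at the 15 regions at start sites. The 15 include both ends of Fosl1 and Egr1, where no start site was used, so not all of them are start sites. The 18 include the region over the lower end of Nr4a1, which lies before its annotated start. In the same windows, regions at ends of other genes had a median of 1.04 and those away from gene ends and outside the member's gene 1.02. Scaled instead by the median peak pileup of each list, the own-gene median was 1.59 and that of all reproducible regions 1.16.

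**Figure D5:**
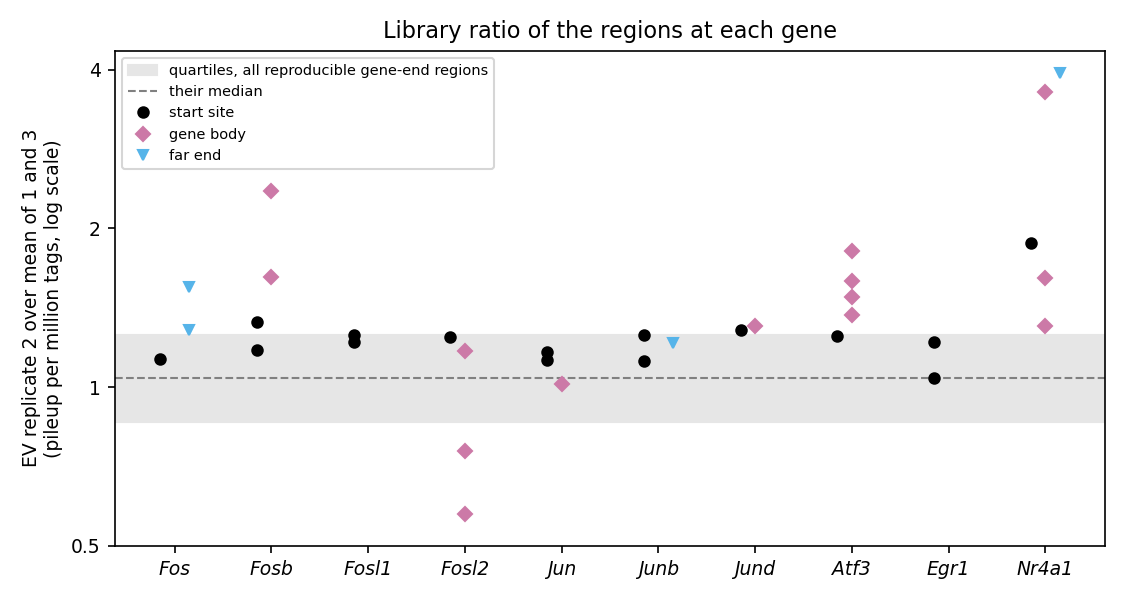
Ratio of the library labelled EV replicate 2 to the mean of replicates 1 and 3 (y axis, log scale, from pileup per 1000000 tags) for each region with a peak in all 3 libraries at each gene (x axis), by position at the gene. Both ends of Fosl1 and Egr1 are drawn as start site. The grey band spans the quartiles of all reproducible gene-end regions, 0.859 to 1.26, and points of Nr4a1, Fosb, Atf3, Fos and Jund lie above it while 2 of Fosl2 lie below.

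The plot of library ratios shows that this difference was uneven. In the body of Nr4a1 a region from 101272860 to 101274673 had 4.21 in the library labelled EV replicate 2, against 1.78 and 0.545 in replicates 1 and 3. The next, beyond its 3′ end, from 101275000 to 101276987, had 4.21 against 1.57 and 0.562. Fosb had 6.30 against 2.74 and 2.61 from 19303618 to 19304437. Atf3 had 8.16 against 4.11 and 4.90 from 191173241 to 191174134. Fosl2 was mixed inside its body. It had 3.12 against 5.41 and 5.46 from 32138424 to 32138808, and 3.62 against 5.49 and 4.06 from 32154810 to 32156081. Between these, from 32139465 to 32140005, it had 5.36 against 4.07 and 5.10. All Jun regions had ratios between 1.01 and 1.16. Nr4a1 also differed between replicates 1 and 3, with a median ratio of 1.40 and up to 3.27 over its 5 regions, whereas 95% of all reproducible regions lay at or below 1.42. These are differences between single libraries, without a replicate check. Since the Sox4 signal goes against the label of replicate 2, a difference between libraries of 1 group and one between treatments cannot be told apart here. The part of the Sox4 signal or of other cell types in them was not tested.

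Peaks called in that library alone were as frequent in the windows as elsewhere. Of the 196 regions in the windows, 33 (16.8%) had a peak in the library labelled EV replicate 2 alone, against 16.9% of all regions, with levels from 0.232 to 5.19 and a median of 0.783. There were 5 found in replicate 1 alone and 4 in replicate 3 alone. Of the 33, 2 lay at members' own genes, in the Fos body from 85475980 to 85476732 with 4.77, and in the Fosb body from 19304932 to 19305152 with 4.20. It lacked 9 regions that both others held (4.59%, against 8.77% of all regions). They included one in the Egr1 body from 34862630 to 34863339, with 5.57 and 4.72 in replicates 1 and 3, and one in the Atf3 body from 191176920 to 191177367, with 4.07 and 3.86. A peak beside tall signal has to exceed a raised local level to be called, so a missing peak there is not a measured low level.

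Other genes of the pathway were mostly open too. Among 15 partner and dimer genes 13 had a start-site peak in all 3 libraries. Batf and Batf2, factors of immune cells, did not, though Batf had one of 0.301 in the library labelled EV replicate 2. Their relative Batf3 had one in all 3 libraries, at 0.625, 1.39 and 0.400 in replicates 1, 2 and 3, the lowest mean of the 13. Nfe2l2, which encodes Nrf2 (10.96 ± 1.25), Mafk, a small Maf protein (9.50 ± 0.387), and Atf7 (9.29 ± 0.956) were tall, and Jdp2, a repressor of AP-1, was low at 1.20, 3.38 and 1.34 (SD, n = 3). Among 21 genes of upstream kinases and factors 21 were open, with Creb1 (10.7 ± 0.989) and Srf (9.21 ± 1.76), the genes of CREB and serum response factor, and Mapk8 (9.63 ± 0.554), a kinase of Jun. Elk3 was low, with 0.323, 1.39 and 0.366. Among 42 other early response genes 40 were open. Trib1 (11.9 ± 0.601), Ifrd1 (11.7 ± 0.494) and Btg2 (11.6 ± 0.619) led them, and Egr3 and Ptgs2 had a peak in the library labelled EV replicate 2 alone, of 1.68 and 1.04. The share over all protein-coding genes was 64.2%, and none of these counts was tested.

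The ratio of the library labelled EV replicate 2 to the mean of the others was above 1.5 at 10 of the 40 open early response genes and at 1 of the 10 members, Nr4a1, against 14.2% of all protein-coding genes open in all 3 libraries. Ccn2, a target of YAP, had 4.34 in that library against 0.781 and 0.664, and Klf4 had 6.41 against 2.37 and 2.53. Id1 had 7.77 against 3.24 and 3.17, and Nr4a3, a close relative of Nr4a1, had 8.62 against 4.30 and 4.44. Dusp1, the gene of a phosphatase of MAP kinases, had 9.26 against 9.16 and 8.52, and Zfp36, whose protein destabilises messenger RNAs, had 9.07 against 9.15 and 8.85. The libraries were thus far apart at Ccn2, Klf4, Id1 and Nr4a3 and close at Dusp1 and Zfp36.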

How the data were processed

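ATAC-seq peak lists of 3 EV hepatocyte libraries were used. The tools Bowtie2, Picard, deepTools and MACS2 and the build mm10 come from GEO, per the submitters' processing notes, and their alignment and duplicate settings are not given in the sources used here. MACS 2.2.7.1 called each library by itself and without a control, per the file headers, with tags shifted by 100 bp and extended to 200 bp, all duplicates in the input kept and a q cutoff of 0.05. The signal deposited by the authors is the pileup of extended tags at a summit, not scaled for depth. The fold, a ratio of that pileup to the local background, and the −log10 p and q values were also deposited by the authors, and serve here for ranks, descriptions and filters alone.

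Pileup was scaled per 1000000 tags of the header. Lines that share chromosome, start and end were counted as 1 peak with its highest pileup, peaks sharing 1 bp were merged into regions, and a region is called reproducible where every library had a peak. A list of peaks holds no values where none was called, so no interval can be given for a level. RefSeq tables of GRCm38.p6 gave gene bodies, and start sites for 17274 of 21631 protein-coding genes. For the rest both gene ends were used. Of 42, 21 and 15 listed pathway genes, all were matched. The members and lists were chosen with earlier results of these data known. All members were named, with neighbours that own a gene end, list genes, and the 3 genes nearest in level. No test between groups was made. Scripts (Python 3.11.15, NumPy 2.4.6, pandas 2.3.3) were tested on simulated data.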

Additional observations from a re-analysis of the deposited data

How the results depend on the processing

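Of 52 values recomputed for the members and the 3 pathway lists under other settings, 47 stayed within 1.5 times of a count or within 1 SD of a level. This SD was over libraries for the percentile, but over the 10 members for the highest-to-lowest ratio, where it was 0.333. Counts of open genes began near their maximum, so they could pass the limit of 1.5 only by falling. The settings for the pathway lists were chosen after seeing the data. The number of members with a start-site peak was 9 or 10 under every setting tried, with Jund lost at a window of 500 bp. The 137 reproducible regions in the member windows became 91 with the 50000 peaks of highest −log10 q per library. They became 45 with a flank of 10 kb and 241 with 100 kb, and lay between 142 and 148 when 1 library was left out. The members' median percentile of 85.9 turned to 9.03 by fold enrichment, whose denominator is the local level, and lay between 82.2 and 88.1 when 1 library was left out. The median ratio of a member's highest to its lowest library was 1.25, against 1.20 over all protein-coding genes. It was 1.61 when scaled by the median peak pileup and 1.51 with pileup as deposited. When 1 library was left out it lay between 1.05, without replicate 2, and 1.25. No paired analysis was possible because the libraries form 1 group. Pileup in regions without a called peak is unknown, which limits every statement on a missing peak.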
